A study of Mus musculus with 2 samples.

Results

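Long intergenic noncoding RNAs (lincRNAs) were read through the 4460 probes that an Agilent mouse expression array carries for them, in unfertilised oocytes of wild-type mice (MUL1 +/+) and of mice without Mul1 (MUL1 -/-). These lincRNA design probes were taken as every non-control probe with a name of the lincRNA design prefix A_30_P, without regard to signal, and they make up 4460 of the 56600 probes used. Both groups were C57BL/6, and each was 1 pool on 1 array, of 213 wild-type and 123 knockout oocytes. Mul1 encodes a ubiquitin ligase anchored in the outer membrane of mitochondria, and the study set out to compare expression profiles between the genotypes. The labels do not give how the allele was made, which part of Mul1 it removes, how many females gave oocytes or their age. With 1 array per genotype no difference has a replicate check, so values are given side by side and counted by size, and no p-value is given. As the pools are bulk RNA, fewer cells of a type and less RNA per cell cannot be told apart.

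LincRNAs are transcribed by RNA polymerase II from sequence between protein-coding genes, are mostly capped, spliced and polyadenylated, and tend to be less abundant and less conserved than mRNAs. A few have well known roles, such as Xist, which coats and silences an X chromosome, and Neat1, which builds paraspeckles in the nucleus. A fully grown oocyte is largely silent in transcription and lives on stored RNA, so a level there reflects storage and decay besides synthesis.

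Each of these probes is 60 bases long. Of the 4460, 4449 are named by a genomic region and a strand, and they cover 3229 regions, 832 of them with probes on both strands. The other 11 carry other names, such as XIST or NEAT1. Regions ran from 62 to 538251 bases with a median of 10601, and 2227 probes were on forward and 2222 on reverse strands. The file places 4369 of the probes on the mouse build mm9, and each of the 4358 placed probes with a region name lay on the strand its name gives. The sequences below belong to the probes on which the largest differences and the highest signals rest, written 5′ to 3′ in the sense of the RNA, with the polyadenylation hexamer AATAAA in capitals where it occurs. Among probes brighter than the median of those detected on both arrays, the first 4 were the lowest in knockout without a protein-coding probe in their region and the next 3 the highest in knockout. The last 3 were among the brightest on both arrays.
A_30_P01018771: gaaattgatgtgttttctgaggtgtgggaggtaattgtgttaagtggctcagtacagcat
A_30_P01022510: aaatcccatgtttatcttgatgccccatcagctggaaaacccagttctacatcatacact
A_30_P01025461: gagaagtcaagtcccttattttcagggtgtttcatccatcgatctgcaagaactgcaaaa
A_30_P01023954: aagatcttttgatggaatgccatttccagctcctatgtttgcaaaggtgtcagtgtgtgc
A_30_P01031894: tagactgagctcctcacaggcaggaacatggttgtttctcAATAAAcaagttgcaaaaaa
A_30_P01032068: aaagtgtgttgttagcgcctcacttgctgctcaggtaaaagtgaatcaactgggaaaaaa
A_30_P01022612: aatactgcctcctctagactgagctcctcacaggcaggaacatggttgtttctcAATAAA
A_30_P01026611: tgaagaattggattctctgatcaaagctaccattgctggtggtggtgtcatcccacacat
A_30_P01022075: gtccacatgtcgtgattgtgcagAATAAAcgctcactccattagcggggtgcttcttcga
A_30_P01026458: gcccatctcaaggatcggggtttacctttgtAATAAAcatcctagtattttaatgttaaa

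AATAAA, the usual signal for cleavage and polyadenylation, was looked for on the strand of the probe and stood in 178 lincRNA design probes (3.99%) and in 5351 of the 52140 probes of other designs (10.3%). Its reverse complement TTTATT stood in 2.76% and 3.94%. Of the 178 lincRNA design probes with AATAAA 66.3% were detected on the wild-type array, against 56.7% of all 4460. A match says only that these letters are in the probe.

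The labels and pools were checked first. The Mul1 probe of the coding transcript (NM_026689) gave a signal of 3353 in wild type and 1074 in knockout, a log2 difference of -1.61, and a second Mul1 probe (ENSMUST00000105815) was near background at 19.3 and 23.1. Whether the bright probe lies in the deleted part is not given in the sources used here. Of 12 oocyte markers 11 were measured, between -0.12 and 0.77 on the log2 scale, with Gdf9, a growth factor made by oocytes, at 68126 and 61515. Markers of other cells were present too. All 10 cumulus and granulosa markers were measured, with summed signals of 156152 in wild type and 164086 in knockout, and all 7 of the oviduct and endothelium list, with 78648 and 121184. The higher sum of that list rested on 1 gene, Ovgp1, at 24266 and 69105. Of the 7, 5 were above 0, and the bright Krt18 was lower, at 27078 and 24029. The myeloid and blood list (14 of 14 measured, none at background) had a median of 1.47 and sums of 37359 and 43657: S100a9 went from 367 to 3473, while the red-cell gene Hba-a1 went from 20004 to 6382. The part of such cells in the results was not tested.

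The lincRNA design probes were dimmer and less often detected than the mRNA probes, and had a higher median signal and detected share than the NR probes and those without an NM or NR accession. A probe is called detected where the scanner software marked it well above background. In wild type 2529 lincRNA design probes were detected (56.7%), and in knockout 2388 (53.5%). Probes of other designs were detected at 66.8% and 65.4%, and those with an NM accession, for protein-coding mRNAs, at 78% and 77.5%. Probes with an NR accession, for curated noncoding RNAs, were detected at 45.4% and 43.9%, and probes with neither accession at 53.0% and 50.1%. On both arrays 2257 lincRNA design probes were detected (50.6%), where 62.3% of all probes were. In wild type alone 272 (6.1%) were detected, in knockout alone 131 (2.94%) and on no array 1800 (40.4%). Of all probes these shares were 3.73%, 2.18% and 31.8%. The knockout array had the higher detection limit, with a lowest detected signal of 15.8 against 12.9 in wild type. With 1 normalised threshold for both arrays, an alternative chosen after seeing the data, 54.1% of lincRNA design probes passed in wild type and 55.7% in knockout, so the order of the genotypes turned. The other probes turned with them, at 65.4% and 66.6%.

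Signals are the scanner's processed intensity. The median over the 4460 probes was 19.97 in wild type and 20.6 in knockout, against 66.9 and 67.8 for all other designs, 302 and 315 for NM probes, 10.3 and 11.9 for NR probes and 17.4 in both for probes with neither accession. Few of them were abundant: 336 (7.53%) lay above the wild-type array's 75th percentile, a signal of 808, where 26.5% of other probes did, and 66 exceeded 10000. The brightest lincRNA design probe read 135863 in wild type and 157206 in knockout, and no spot of the design was saturated or marked as an outlier.

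**Figure D1:**
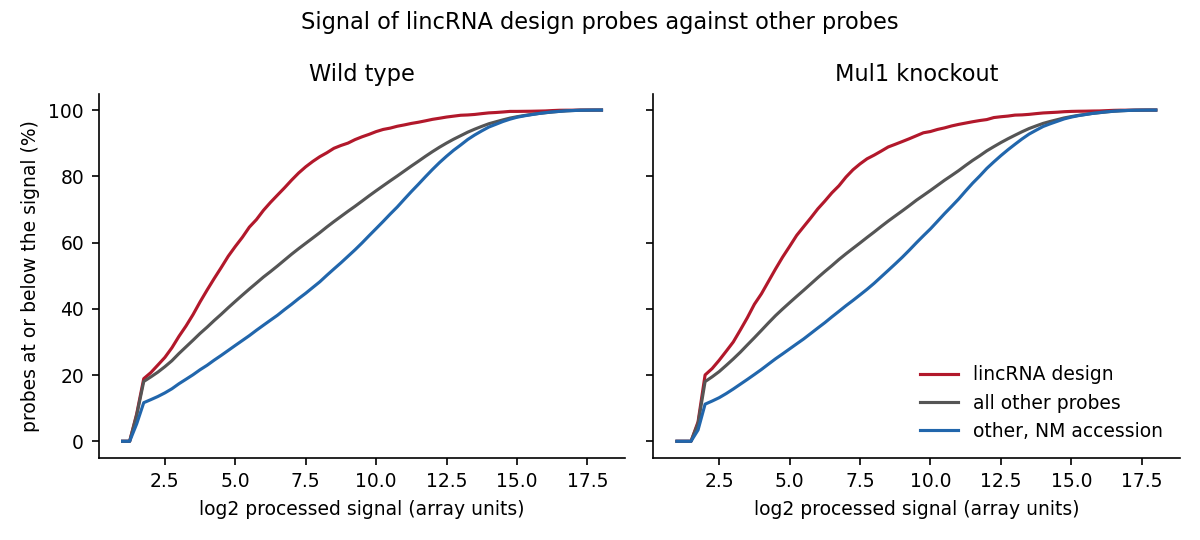
Share of probes (%, vertical axis) at or below each log2 processed signal (horizontal axis) on the wild-type and the knockout array, for lincRNA design probes (red), all other probes (grey) and other probes with an NM accession (blue). The red line lies above the others on both arrays: 56.7% and 53.5% of lincRNA design probes were detected, against 78% and 77.5% of NM probes.

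Base composition moved with detection. Of 554 lincRNA design probes with at most 35% G and C, 50.2% were detected in wild type, of the 1011 with over 45 to 55% it was 64.7%, and of the 123 with over 60% it was 91.1%. Over the same range the other probes went from 62.4% to 82.2%. The median GC of the lincRNA design was 45% and that of other designs 41.7%. Detection also moved with region length. In regions of up to 1000 bases 45.4% of 966 probes were detected in wild type and in regions over 20000 bases 61.3% of 1381. Probes near the 3′ end of their region were not detected more often: 52.6% of 837 probes within 100 bases of that end were detected and 62.5% of 957 probes more than 10000 bases from it. A probe that far from the end can lie only in a long region, so position and region length cannot be told apart in these shares.

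The label "intergenic" was checked against the array's own gene probes. Of the 4358 placed probes with a region, 612 (14.04%) lay in a region that also holds a probe of another design on the same strand and 635 (14.6%) in one with such a probe on the opposite strand. Few of those are mRNA probes: an NM probe lay in the region on the same strand for 86 (1.97%) and on the opposite strand for 104 (2.39%). The 86 with a same-strand NM probe were detected at 80.2% in wild type, the 3253 whose region holds no other design at 55.1%. Leaving out the overlapping regions therefore lowered the detected share by little. No gene annotation on mm9 was used here, so introns and untranslated ends without a probe of their own are not covered by this check.

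The median difference between the genotypes lay near 0. Over the 2257 probes detected on both arrays the median of knockout minus wild type, each array scaled to its own 75th percentile, was 0.02 on the log2 scale with an SD across probes of 0.48. Over 32998 other probes it was 0.02 with an SD of 0.45. At least 2-fold higher in knockout were 53 lincRNA design probes (2.35%), where 2.72% of all probes were, and at least 2-fold lower were 60 (2.66%), where 1.86% of all probes were. None was 4-fold higher and 6 were 4-fold lower, where 93 and 44 of all 35255 probes detected on both arrays were. Among the probes of other designs at least 2-fold apart, 60.4% were higher in knockout. Among those of the lincRNA design 46.9% were, and scaling on spike-in controls moved this to 68.8%, quantile normalisation to 39.5% and normexp background correction to 21.1%.

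**Figure D2:**
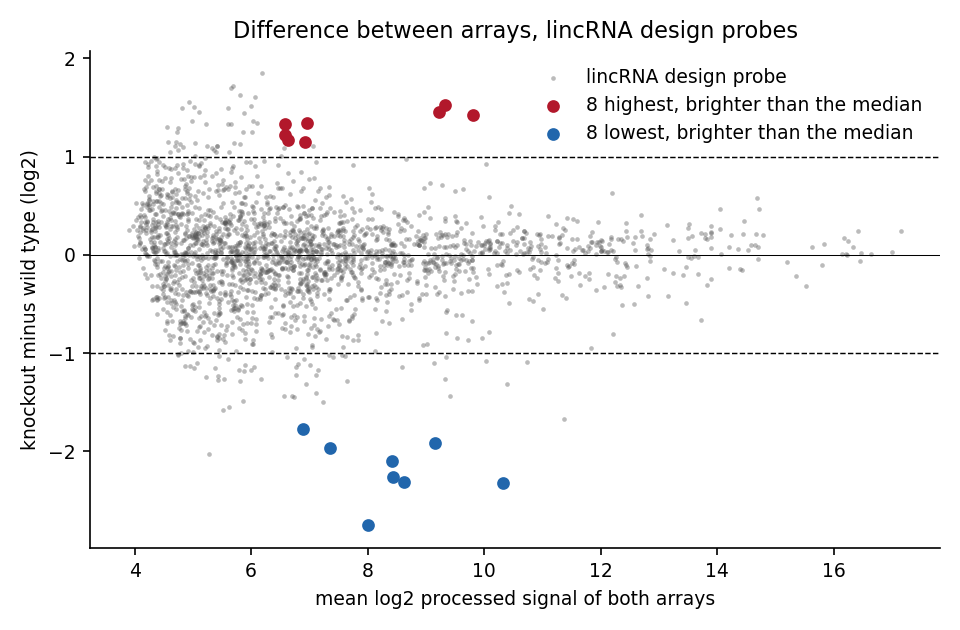
Knockout minus wild type (log2, vertical axis) against the mean log2 processed signal of both arrays (horizontal axis) for the 2257 lincRNA design probes detected on both, 1 point each; dashed lines mark 2-fold. Red points are the 8 highest and blue points the 8 lowest among probes brighter than the median; the blue points reach -2.75 and the red 1.52, and the spread narrows as signal rises.

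As dim probes scatter more, lincRNA design probes were set against other probes of equal signal, in 10 bins of the mean signal with equal numbers of lincRNA design probes. The medians differed little, by -0.02 (lincRNA design minus other, weighted over bins), by -0.06 from NM probes alone and by 0.05 from probes with neither accession. The share at least 2-fold higher in knockout was 2.35% in the lincRNA design and 4.18% in other probes of equal signal, and the share at least 2-fold lower was 2.66% and 2.26%. Against all other probes, the smaller share of higher probes was seen in the dimmer and the brighter bins alike. The larger share of lower ones was seen in the brighter bins. Of the 1128 lincRNA design probes in the 5 brighter bins, 10 (0.887%) were 2-fold or more higher and 36 (3.19%) 2-fold or more lower, while other probes of equal signal had 2.65% and 2.16%. In the 5 dimmer bins the lincRNA design had 3.81% higher and 2.13% lower, against 5.70% and 2.35%. There the higher share was 7.29% in NM probes of equal signal, 4.27% in those with neither accession and 3.62% in NR probes. Against NR probes the smaller share thus did not hold in the dimmer bins.

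The choice of comparison probes changed these shares. In the 5 brighter bins 3.47% of NM probes of equal signal were higher in knockout by 2-fold or more and 0.787% lower. Probes with neither an NM nor an NR accession, many of them unannotated transcripts and expressed tags, had 1.45% higher and 4.81% lower, and NR probes 1.40% and 2.49%. The lincRNA design, with 0.887% and 3.19%, had more lower than higher probes, as did the noncoding and unannotated probes, while the mRNA probes had more higher than lower. The 10 higher and 36 lower probes lay under 10 and 36 different names of region and strand. Such names can overlap, so the counts are not of separate loci. A_30_P01031894 and A_30_P01022612, both higher, read the same locus. Among the lower, chr15:84752337-84752984 lies inside chr15:84737071-84753513, on the same strand. Both counts were the same under quantile normalisation, loess, the authors' values and scaling on the median of detected probes. They became 14 and 24 on the spike-in scale and 3 and 15 with normexp, with more lower than higher under each of these settings.

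**Figure D3:**
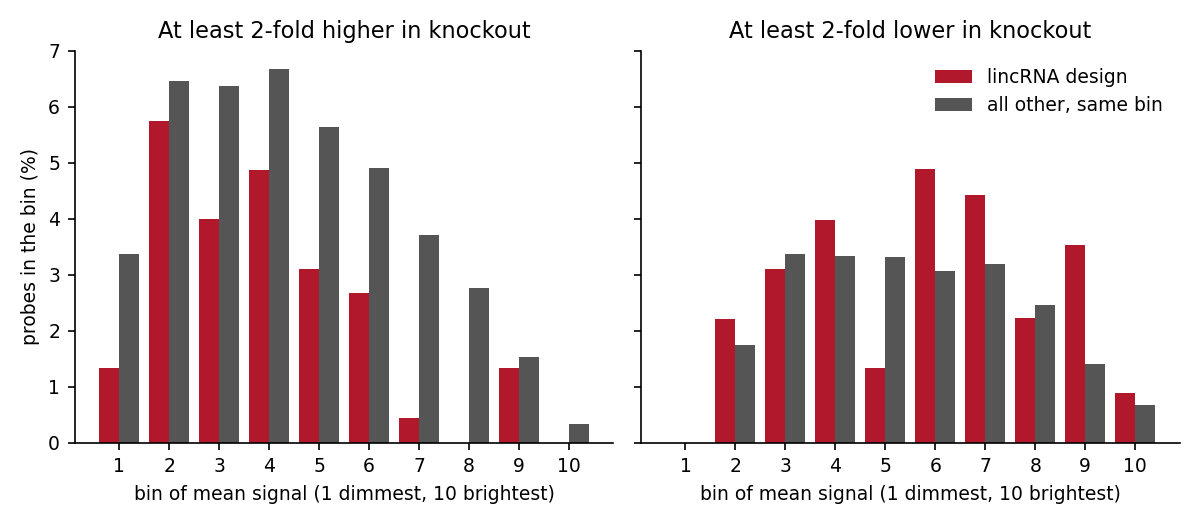
Share of probes (%, vertical axis) at least 2-fold higher (left) or lower (right) in knockout in 10 bins of mean signal (horizontal axis), for lincRNA design probes (red) and other probes of the same bin (grey). In bins 6 to 9 the lower share of lincRNA design probes was 4.89%, 4.42%, 2.22% and 3.54%, against 3.08%, 3.20%, 2.46% and 1.41%.

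The 8 lowest lincRNA design probes brighter than the median came from separate loci. Values are the signal with the scanner software's error for that spot, which does not hold the spread between pools. A_30_P01018771, on the reverse strand of chr13:48620882-48643532 (mm9), read 2915 ± 291 in wild type and 569 ± 57.0 in knockout, a difference of -2.33. The forward strand of the same region read 98.4 and 114, so only the brighter strand was lower. A_30_P01022510, on the forward strand of the short region chr10:96103732-96103867, read 889 ± 89.0 and 175 ± 17.9 (-2.31). Its nearest gene probe, 18.4 kb away on the same strand, was for Btg1, an antiproliferative gene, at 1768 and 1244 (-0.48). The lincRNA design probe was thus 4.97-fold lower where its neighbour was lower by less than 2-fold.

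A_30_P01025461, on the reverse strand of chr15:84752337-84752984, read 762 ± 76.3 and 156 ± 15.97 (-2.26), and the nearest probe, 8.78 kb away on the other strand, was not detected. A_30_P01023954, on the reverse strand of chr16:4871449-4874336, read 719 ± 72.0 and 164 ± 16.7 (-2.10). Here the neighbour moved as well: the predicted gene Gm10914, 2.67 kb away on the same strand, read 109 and 40.2 (-1.41). A_30_P01025122 in chr6:31007184-31007725 read 1123 and 291 (-1.91) and A_30_P01020460 in chr9:31873801-31874407 read 326 and 81.5 (-1.97), both with no probe of another design within 50 kb. These 6 stayed at least 2-fold lower under each of 7 other scalings and background corrections.

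The lowest of all lay across a coding gene. A_30_P01027813, on the forward strand of chr10:82074600-82085425, read 675 ± 67.5 in wild type and 97.9 ± 10.4 in knockout (-2.75). The midpoint of an NM probe for 1190007I07Rik lay 6 bases away on the opposite strand and read 3621 and 3241 (-0.13). The site is thus antisense to a probed gene, and its strands gave different values. The 9th lowest of the probes brighter than the median, A_30_P01019037 on the reverse strand of chr19:5834117-5835940, read 4765 and 1460.3 (-1.67), and a same-strand probe for Neat1 9.58 kb away read 655 and 344 (-0.90).

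The highest lay closer to 0. Dimmer probes reached 1.85 (38.7 and 136, on the forward strand of chr8:124355710-124401160). Of the 8 highest brighter than the median, 3 had wild-type signals from 366 to 554 and the other 5 from 60.8 to 82.1. A_30_P01031894 and A_30_P01022612, which overlap and belong to 2 region names that start at chr5:123582742, read 384 ± 38.5 and 554 ± 55.5 in wild type and 1078 ± 108 and 1454 ± 145 in knockout. Their differences of 1.52 and 1.42 are 1 locus measured by overlapping probes, not 2 events. The forward strand of that region read 28.3 and 22.7. The nearest gene probe, for the histone methyltransferase Setd1b 7.74 kb away on the opposite strand, read 746 and 769 (0.08). A_30_P01032068, on the reverse strand of chrX:50400250-50410825, read 366 ± 36.7 and 980.2 ± 98.1 (1.45), and a same-strand probe for C430049B03Rik, a noncoding transcript 2.40 kb away, read 590.5 and 882 (0.61). These 3 stayed at least 2-fold higher under each of 7 other scalings and corrections. The other 5 were below 2-fold in 1 of the 7.

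The brightest lincRNA design probes lay near 0. A_30_P01026611, on the forward strand of chr6:116123643-116124550, read 135863 and 157206 (0.24). It was printed at 10 spots, and the SD of its difference between spots was 0.024, so the difference exceeded the spread on the arrays, which leaves out the spread between pools. The same region held 2 more of the 8 brightest, A_30_P01021866 at 80935 and 93529 (0.24) and A_30_P01026091 at 74500.5 and 80628 (0.15). All 3 were higher in knockout by a similar, small amount. Their sequences were compared only with other probes of the array. This region may be a copy of a coding gene elsewhere, and the 3 probes may then read the mRNA of that gene, which was not tested. Their signals are thus not shown to be those of a lincRNA. A_30_P01022075 in chr17:17481706-17482457 read 132116 and 131587 (0.03), and A_30_P01026458 in chr11:22681800-22707775 read 91493 and 90823 (0.02). The 8 brightest stayed between -0.06 and 0.24. All 5 lincRNA design probes printed at 10 spots were bright, with SDs between spots from 0.024 to 0.085.

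Of the 11 probes with a name in place of a region, 6 were detected on both arrays. NEAT1, the paraspeckle scaffold, read 6415 in wild type and 4390 in knockout (-0.52). XIST, the silencer of an X chromosome, read 2994 and 2207 (-0.41). TUG1 read 4113 and 4171 (0.05), KCNQ1ot1, an imprinted antisense RNA, 255 and 255 (0.03), PINC 46.5 and 28.3 (-0.69) and NRON 39.6 and 32.4 (-0.26). None was 2-fold apart. TSIX, the antisense partner of Xist, the imprinted H19, HOTAIR and lincP21 were not well above background on any array, nor was the 11th.

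Probes of other designs for named long noncoding RNAs gave a wider view. Of 56 such genes listed, 39 were measured on both arrays, and their median difference was -0.18, where all 20802 genes measured had 0.03. Of the 39, 14 were above 0, 1 was higher by 2-fold or more (2.99% of all genes were) and 3 lower by 2-fold or more (1.24% of all genes were). The 3 were Pvt1, a neighbour of Myc, at 673 and 271 (-1.28), Snhg15, a snoRNA host, at 4057 and 1899 (-1.06), and Rmrp, the RNA of RNase MRP, at 1329 and 637 (-1.03). At the other end Rmst read 110 and 319 (1.56), Snhg20 1438 and 2078 (0.56) and Terc, the telomerase RNA, 62.7 and 84.8 (0.47). Neat1 (-0.78) and Pvt1 also had lincRNA design probes on the same side, chosen after their values were seen. In chr15:61984389-62102500, which holds Pvt1 on the forward strand, 2 such probes read 271 and 174 (-0.60) and 157 and 56.9 (-1.43).

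The factors that make and remove lincRNAs lay closer to 0. All 24 listed genes were measured, with a median of -0.04 and 9 of 24 above 0, and none was at least 2-fold higher, where 2.99% of all genes were. Pcf11, a transcription termination factor, was the only 1 of the 24 at least 2-fold lower, at 416 and 194 (-1.07), where 1.24% of all genes were. Hnrnpu, which tethers Xist to chromatin, read 5441 and 4323 (-0.30), and Ncbp1 of the cap-binding complex 1331 and 1717 (0.40). Exosc10 and Dis3, exosome nucleases, were at -0.09 and -0.19.

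Many regions gave signal on both strands. Of the 832 regions with probes on both, 42.2% were detected on both strands in wild type and 39.8% in knockout, 42.1% and 41.6% on 1 strand, and 15.7% and 18.6% on none. Of the 2397 regions with probes on 1 strand 53.6% and 50.2% were detected. In 303 regions both strands were detected on both arrays, and the strands read different levels: the median gap was 2.45 on the log2 scale, 5.47-fold, and 230 of 303 (75.9%) were at least 2-fold apart. Signals were compared between different probes here, so the gap holds the probes' own affinities as well as the RNA. Across the 303 regions the correlation of forward with reverse signal was r = -0.001, and that of their differences between genotypes r = 0.08, as a description over regions that share the 2 arrays.

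The widest gap stood in chr14:78924115-78938125, with 103262 and 101937 on the forward and 91.0 and 68.0 on the reverse strand. Next came chr9:118291593-118324230, with 23098 and 31111 against 18.5 and 22.8. At the other end chr6:145647711-145756861 read 1574 and 1792 on the forward and 1595 and 1680 on the reverse strand, a gap of 0.04. In chr15:79764481-79809909 the strands had a like mean level (gap 0.05), yet the forward strand read 590 and 662 (0.20) and the reverse strand 1013 and 411.5 (-1.27). Of the 303 regions 25 had at least 1 strand 2-fold apart between genotypes. Of all lincRNA design probes detected on both arrays 2.35% were 2-fold higher and 2.66% lower. A region counts here if either strand passes, and the share for unrelated pairs of probes was not computed. In 1 of the 25, chr17:56687541-56694616, both strands were 2-fold lower, from 246 to 117 and from 578 to 256, in none were both 2-fold higher, and in none did the strands lie 2-fold apart in opposite directions.

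**Figure D4:**
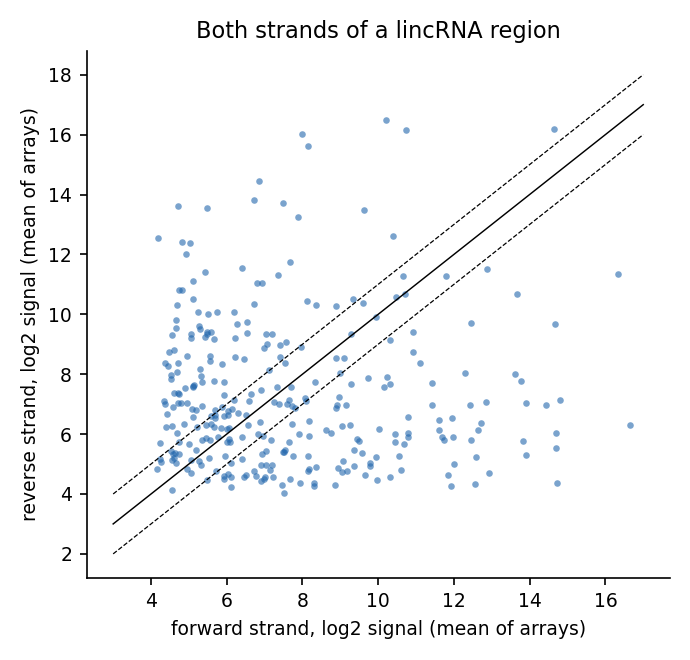
Mean log2 processed signal of the reverse strand (vertical axis) against the forward strand (horizontal axis) for the 303 lincRNA regions with both strands detected on both arrays, 1 point per region; the solid line marks equal signal and the dashed lines 2-fold. Of the points, 75.9% lie outside the dashed lines.

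Probes that read the same strand of 1 region were set side by side. In 147 regions and strands at least 2 probes were detected on both arrays (312 probes), with a median SD between probes of 0.16, and in 96 of them (65.3%) all probes lay on 1 side of 0. In 13 at least 1 probe was 2-fold apart, and in 1 of the 13 all of them were. That was the reverse strand of chr12:52886460-52888921, where 2 probes read 83.8 and 36.5 (-1.17) and 113 and 46.0 (-1.27). The region with most probes measured, the reverse strand of chr3:87757295-87774970, had 4 probes between 0.31 and 0.80, all higher in knockout and all dim, from 16.6 to 80.0 in wild type. The file places none of these 4. With signals at least 4 times the lowest detected, 72 regions remained, 69.4% on 1 side. Values for sets of unrelated probes were not computed, so these shares and counts have no background.

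The difference of a lincRNA design probe correlated with that of its nearest probe of another design where both read the same strand. For 791 lincRNA design probes such a same-strand neighbour lay within 50 kb with both measured (598 different neighbours), and the correlation of the differences across them was r = 0.26. Within 10 kb (438 probes) it was 0.41. With the neighbour on the opposite strand it was 0.03 over 624 probes and 0.08 over 331. These correlations are descriptions over probes on the same 2 arrays, some of which share a neighbour.

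Of the 34 lincRNA design probes at least 2-fold lower with a same-strand neighbour, 30 had a neighbour below 0 and 7 a neighbour at least 2-fold lower as well, and the neighbours' median was -0.48. Over all 791 pairs 56.6% of neighbours were below 0 and 3.92% at least 2-fold lower, with a median of -0.03. Of the 16 at least 2-fold higher, 10 had a neighbour above 0 and 2 a neighbour at least 2-fold higher, where 43.4% and 2.02% of all 791 neighbours were. Where the neighbour lay on the opposite strand, 3 of 7 lower probes had a neighbour below 0, where 49.7% of all 624 such neighbours were. Of 13 higher probes, 8 had an opposite-strand neighbour above 0, where 50.3% of all 624 were. With only NM probes as neighbours the strands differed less: r was 0.17 over 726 same-strand and 0.09 over 560 opposite-strand pairs within 50 kb, and 0.22 and 0.17 over 264 and 180 pairs within 10 kb. Of 38 lower probes, 30 had a same-strand NM neighbour below 0 and 1 such a neighbour 2-fold lower, with a neighbours' median of -0.10. Over all 726 pairs 55.1% of the NM neighbours were below 0 and 1.38% 2-fold lower, with a median of -0.01. Of 16 higher probes, 8 had a same-strand NM neighbour above 0, where 44.9% of all 726 were. An array cannot tell a separate lincRNA from an extension of the neighbouring transcript.

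**Figure D5:**
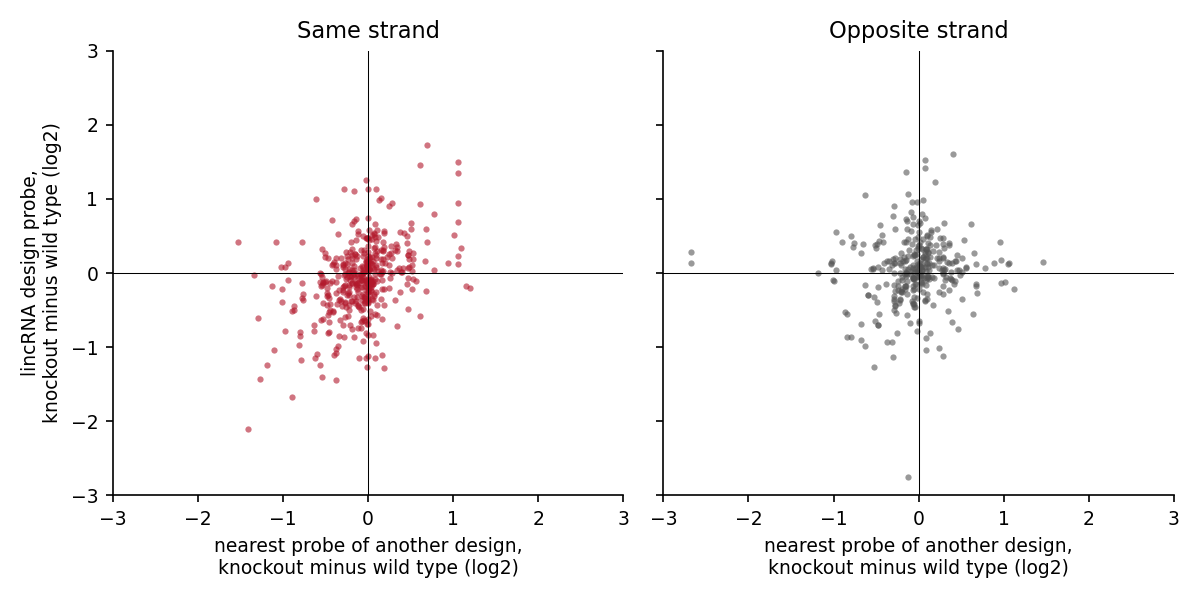
Knockout minus wild type (log2) of a lincRNA design probe (vertical axis) against that of the nearest probe of another design within 10 kb (horizontal axis), 1 point per pair, for neighbours on the same strand (left, 438 pairs) and on the opposite strand (right, 331 pairs). The points spread along the diagonal on the left (r = 0.41) and not on the right (r = 0.08).

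Some probes share sequence with genes elsewhere. Matches were sought only in other probes, so a match to the rest of a transcript, as may hold for chr6:116123643-116124550, would be missed. A run of at least 20 bases in common with a probe of another design was found for 40 lincRNA design probes, and for 20 of them that probe lies more than 100 kb away or on another chromosome. All 20 were detected on both arrays, with median signals of 8320 and 7712, where the design's median was 19.97 and 20.6. Their differences lay between -0.58 and 0.34, so none of the 20 was among the probes 2-fold apart. Examples are A_30_P01030669, which shares 28 bases with a probe of the ribosomal protein gene Rps29 and read 72605 and 71550, and A_30_P01029192, which shares 50 bases with one of the folate enzyme gene Mthfs and read 9233 and 8162. Some of the shared runs are largely CA or GT repeats, as with Btnl10, Nrp2 and Plekha6, and need not point to that gene. Whether signal of such probes comes from the other gene's RNA was not tested.

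A few lincRNA design probes span miRNA hairpins. Hairpins in RefSeq (GRCm38.p6) shared at least 25 bases with 3 probes of the design, those of Mirlet7c-2, Mir8110 and Mir363. The first is shown because its 60 bases hold the whole of let-7c, a miRNA that restrains growth and pluripotency genes. Capitals mark the 49 bases shared with the hairpin in the probe and the seed in the miRNA.
A_30_P01031395: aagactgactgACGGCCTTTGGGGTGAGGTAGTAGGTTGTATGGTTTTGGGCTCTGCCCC
mmu-let-7c-5p: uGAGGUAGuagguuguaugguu
This probe lies on the forward strand of chr15:85412264-85549139 (mm9) and read 186 ± 18.8 in wild type and 94.9 ± 10.1 in knockout (-0.94), just under 2-fold lower. Its nearest probe of another design, for A130088B03Rik 25.85 kb away on the same strand, went the other way, at 927 and 1867 (1.04). The lincRNA design probe cannot tell the hairpin from a longer host transcript. The Mir8110 probe read 240 and 302 (0.36), and the Mir363 probe was not well above background at 2.68 and 3.31.

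Annotated promoters were searched for by sequence in both directions. Place in the genome was not compared, so a repeat or a copy elsewhere can give a match. Some probes, such as A_30_P01033392, matched in both directions and are counted under each. Of the 4460 probes 46 shared at least 25 bases in sense and 61 in antisense with a RefSeq promoter window of 250 bases before to 50 after a gene's start (GRCm38.p6). The antisense ones were detected at 80.3% in wild type and 70.5% in knockout and the sense ones at 60.9% and 63.0%, with median GC of 55% and 53.3%. Of the 43 antisense ones measured 1 was at least 2-fold higher and 1 lower, and of the 28 sense ones 1 was higher and none lower, where 2.72% of all probes were higher and 1.86% lower. The 3rd brightest lincRNA design probe, A_30_P01031448 in chr14:78924115-78938125, shares 58 bases in antisense with the window of Akap11, an anchoring protein of kinase A, is 83.3% G and C and read 103262 and 101937.

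Of the probes detected on 1 array only, most were near the limit. The 272 detected in wild type alone had a median signal of 19.3, and for 13 the signal was at least 2-fold above the bound of the other array. The 131 detected in knockout alone had a median of 21.8, and 37 passed 2-fold. The share of all probes that passed this bound is not given here, so the 13 and 37 have no background. The bound takes the higher of the dim probe's own value and the lowest detected signal of that array, each after scaling. On the knockout side the reverse strand of chr3:26982754-26983352 was at least 6.81-fold higher (12.6 in wild type, 85.6 in knockout), that of chr8:49911596-49912196 at least 5.61-fold (6.11 and 70.6), the forward strand of chr8:85952719-85958369 at least 4.04-fold and that of chr10:98761521-98885681 at least 3.77-fold. On the wild-type side the forward strand of chr19:58222540-58223077 was at least 3.904-fold lower in knockout (63.1 and 9.71), the reverse strand of chr9:65368908-65377592 at least 3.77-fold, the forward strand of chr6:11994002-11997859 at least 3.28-fold and the reverse strand of chr4:16092250-16111675 at least 2.67-fold. As the wild-type array had the lower limit, a bound can be larger on the knockout side at equal signal.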

How the data were processed

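The deposited files are linear spot intensity per array. Per the file headers they come from Agilent Feature Extraction 10.7.1.1 on array design 074809, while the submitters' processing notes name 9.5.1.1. Per the file headers the processed intensity was background-subtracted and detrended, not normalised between arrays. The authors' series-wide table of intensity (56605 probes) has sorted columns equal within 0.0243%, that is, quantile normalised.

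The log2 intensity was averaged over spots without outlier flags, and each array's 75th percentile (808 in wild type, 790 in knockout) was subtracted. Control spots were left out, and 56600 probes were used. Other designs' probes were named through RefSeq tables of GRCm38.p6 (32994 by accession, 10223 by symbol, 520 by synonym, 8408 by the file's name). A gene's value is the mean over its probes detected on both arrays. No test was run, as each genotype has 1 array and replicate numbers pair nothing.

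The rule for names took Mul1; the 8 highest and 8 lowest lincRNA design probes brighter than the median; the 8 brightest; the 4 largest bounds per array; extreme strand pairs (3 each); the 3 regions with most probes; the extreme lncRNA genes. The 9th lowest and single features beyond this rule were chosen after their values were seen, and the report describes part of those the rule took, giving the others as counts or ranges. Members, lists and rules were chosen with earlier results of these data known. Alternatives used limma 3.58.1 in R 4.3.3 (normexp offset 50, quantile, loess span 0.3) and 7 spike-in probes. The scripts (Python 3.11.15) were tested on simulated data. Amplification from small, unequal pools can distort abundant against rare RNA, which 1 array per pool cannot show.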

Additional observations from a re-analysis of the deposited data

How the results depend on the processing

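No paired analysis was possible because each genotype has 1 array, and no replicate could be left out. Of 124 alternative values, 38 moved and 86 stayed within a tolerance: 1.5 times for counts, the 95% Wilson interval for shares, the median SD between spots (0.0432) for medians and 0.1 for r. The detected share of lincRNA design probes was 82.4% in wild type and 81.7% in knockout with the looser flag of positive and significant spots, 33.6% and 30.2% at 4 times the lowest detected signal, and 54.1% and 55.7% with 1 threshold for both arrays, where the order of the genotypes turned. The scaled median signal (-5.34 and -5.26 on the log2 scale) was -3.40 and -3.35 with normexp, -5.29 and -5.31 with quantile normalisation, and -4.31 and -4.23 relative to the median of detected probes. The median difference of 0.02 was 0.16 on the spike-in scale, which moved all probes to a median of 0.16, and 0.11 with no filter. The 53 higher probes became 88 on the spike-in scale, 4 with normexp, 425 with no filter, 11 under the stricter filter and 33 without regions that hold another design. The 60 lower ones became 40 on the spike-in scale, 15 with normexp, 283 with no filter and 34 under the stricter filter. At 1.5-fold 202 were higher and 220 lower, where 2594 and 2261 of all 35255 probes were. At 4-fold it was 0 and 6, where 93 and 44 of all probes were. At equal signal the difference in medians was -0.063 against NM probes and 0.0547 against probes with neither accession. The lincRNA share of higher probes minus that of other probes (-1.83 percentage points) was -0.675 with normexp, -3.03 against NM, -0.163 against NR and -0.512 against neither, and -0.361 in bins of GC content in place of signal. For lower probes (0.401 points) it was 1.65 against NM, -1.54 against neither and 1.24 in bins of GC, and, within the wide tolerance, 0.0146 in bins of knockout signal, 0.707 in bins of wild-type signal, 0.928 under the stricter filter, 0.254 on the spike-in scale and 0.181 with normexp. The share of regions with both strands detected on both arrays (36.4%) was 14.3% under the stricter filter, and the same-strand correlation with the nearest probe (0.26) was 0.41 within 10 kb and 0.17 with NM neighbours. The single threshold, the GC bins and the regions without another design were chosen after seeing the data. The cause of these shifts was not tested. Near the detection limit, where the median lincRNA design probe lies, differences are imprecise.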

Other observations

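The lincRNA design probes covered all chromosomes but Y at a similar detected share: in wild type it ran from 49.0% of 257 probes on chromosome 3 to 66.4% of 238 on chromosome 17. The 91 probes that the file does not place were detected at 46.2% in wild type and 47.3% in knockout, and the 305 unplaced probes of other designs at 40.3% in wild type. By strand, 56.3% of the 2227 forward and 57.2% of the 2222 reverse probes were detected in wild type. The median difference over probes detected on both arrays was higher at higher GC content, from -0.06 at up to 35% G and C to 0.14 over 60%, values that the 75th percentile scaling does not adjust for.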
